A study of Homo sapiens with 6 samples.

Results

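Histone lysine methyltransferases and demethylases are the enzymes that add methyl groups to, and remove them from, lysines of histones H3 and H4. The group described here holds 48 genes chosen by name, of 20263 genes in the table: 18 demethylases, 28 methyltransferases and 2 non-catalytic core subunits of Polycomb repressive complex 2 (PRC2), EED and SUZ12. All 48 have 1 line each in the table and all 48 passed the filter on low values, so each was tested. The list of 48 is not complete, and KDM5C and KDM6A, for example, are not in it. The data are mRNA-seq profiles of the human cell line HCT116, which was established from a colorectal carcinoma, in 2 groups of 3 samples. Cells of the first group received CSE, an abbreviation taken to mean cigarette smoke extract since the series title speaks of smoking. The other group, labelled wild type (WT), is the same line with no treatment named. The sources used here do not give the dose, the exposure time or whether a solvent control was used, and all 6 samples come from 1 cell line.

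Methylation at different histone lysines marks different states of chromatin. Methylated H3K4 marks promoters and enhancers, H3K36 and H3K79 methylation accompanies transcribed genes, and H3K9, H3K27 and trimethylated H4K20 are found on repressed chromatin. Most writers carry a SET domain and take the methyl group from S-adenosylmethionine, while DOT1L has a different fold. Erasers of the JmjC type use iron, oxygen and 2-oxoglutarate, and the LSD type uses FAD. In colorectal cancer EZH2 and KDM1A are among the studied drug targets of this class. The values below are of mRNA and say nothing of enzyme activity or of the marks themselves.

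Between 12640 and 12740 genes reached a TPM of 1 (transcripts per 1000000, a share of the library corrected for transcript length) in the CSE samples, and between 12741 and 12778 in the WT samples. Transcripts of the mitochondrial genome held 25.5% to 25.8% of TPM in CSE and 27% to 30.2% in WT. The epithelial markers summed to 5575 to 5873 TPM in CSE and 5324 to 5578 TPM in WT, with all 6 tested and 2 higher (KRT19 and EPCAM) and 1 lower (KRT18), where the EPCAM call was lost in 3 of the 15 alternative settings, among them the one without WT replicate 3. Of 8 markers of immune, endothelial and stromal cells, 6 did not pass the filter, with DCN at 0 in all samples, and CD68 and COL1A1 were lower in CSE. Of all genes tested 24.5% were higher in CSE and 25.6% lower. CSE replicate 3 stood apart from the other CSE samples in a way that followed transcript length. With tested genes in 4 bins of transcript length, in the longest bin (5134 to 34526 bases), the median difference of CSE replicate 3 from the mean of CSE replicates 1 and 2 was -0.13 on the log2(TPM + 1) scale, against 0.036 in the shortest bin (171 to 2129 bases). Of the 48 members, 28 fall in the longest bin and 37 were lower in CSE replicate 3 than in both other CSE samples. The matching count over all genes tested is not at hand. The median difference of CSE replicate 3 was -0.13 for the members and -0.052 for all genes tested. Values without CSE replicate 3 are given beside the main counts and beside the calls that it changes.

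Every demethylase gene that passed the test was higher with CSE, while methyltransferase genes moved both ways. Of 18 demethylases, 9 were higher in CSE, 0 were lower and 9 did not pass. Of 28 methyltransferases, 8 were higher, 5 were lower and 15 did not pass, and neither EED nor SUZ12 passed. In all, 17 members were higher and 5 lower at an adjusted p under 0.05 (limma, Benjamini-Hochberg over 12793 genes), when 24.5% of all genes tested were higher and 25.6% lower, and 50.1% were called in either direction. The 22 called members are 45.8% of the 48, near the share of all genes. By direction, 50% of demethylases and 28.6% of methyltransferases were higher, and 0% and 17.9% were lower. The median log2 fold change (the CSE mean less the WT mean of log2(TPM + 1)) was 0.11 for demethylases and 0.011 for methyltransferases, against -0.0039 for all genes tested. With 1 sample left out the median ran from 0.099 to 0.16 for demethylases and from -0.0082 to 0.039 for methyltransferases, so that of the methyltransferases has no stable sign. Without mitochondrially encoded genes it was 0.061 for demethylases and -0.045 for methyltransferases, against -0.058 for all genes tested. No test compares the classes, since their genes are not replicates.

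**Figure D1:**
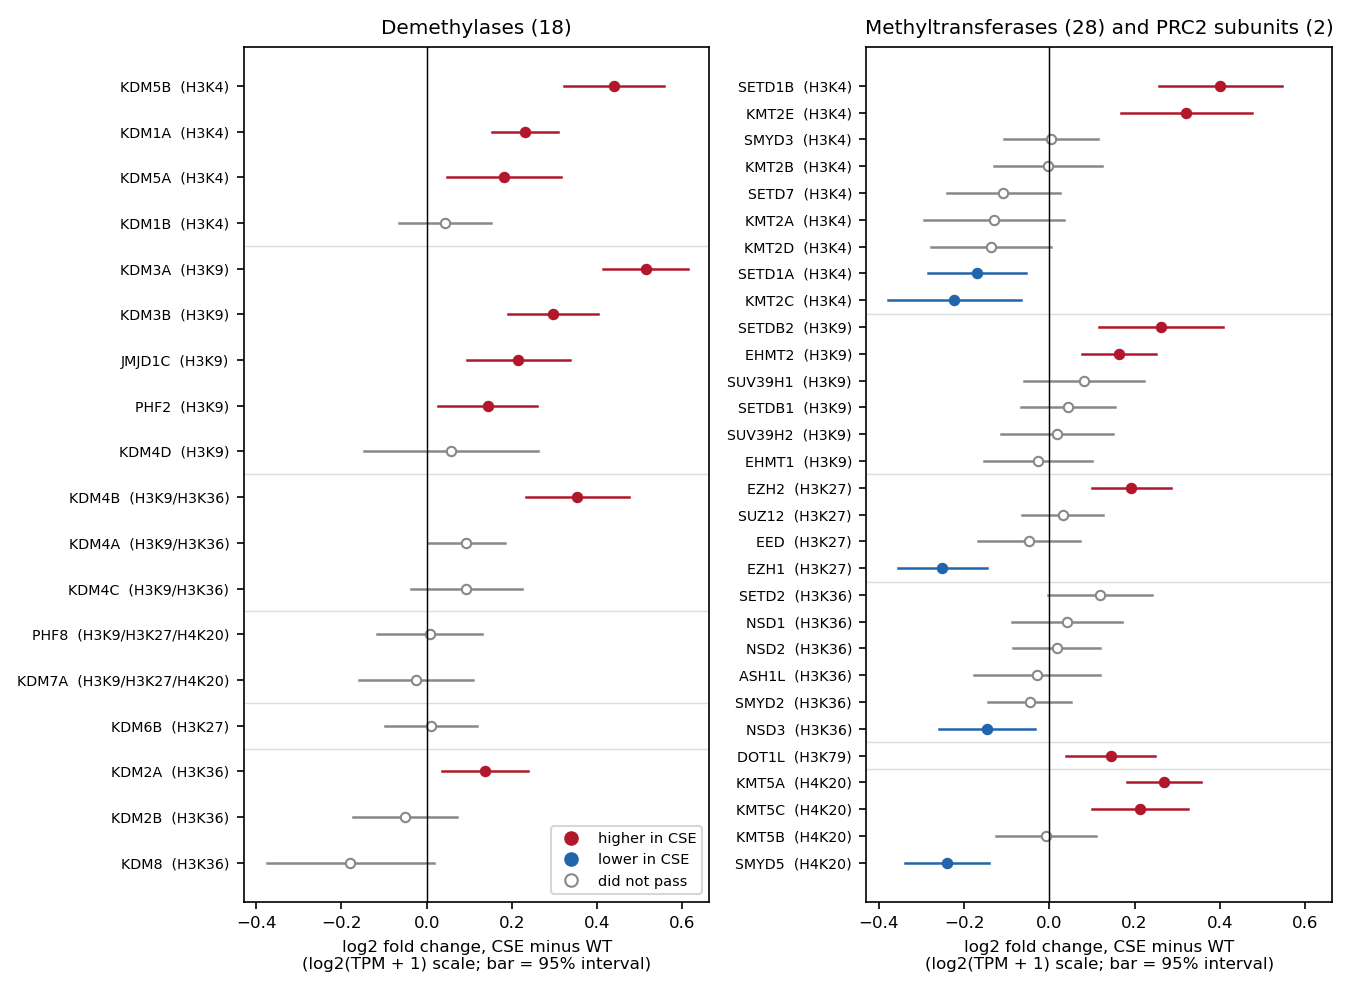
Log2 fold change of each of the 48 members, as CSE less WT in log2(TPM + 1), with its 95% interval from limma, for demethylases (left panel) and for methyltransferases and PRC2 subunits (right panel), ordered by target residue, with PHF8 and KDM7A in 1 group by the residues either acts on. Filled red points were higher in CSE (17 genes), filled blue points lower (5 genes) and open grey points did not pass, and all 5 blue points are methyltransferases.

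Without CSE replicate 3, 20 members were higher and 3 lower, when 27.6% of all genes tested were higher, 23.7% lower and 51.4% called in either direction. The 17 higher members remained and KDM4A, KDM4C and SETD2 joined them, while KMT2C and NSD3 were no longer called. The demethylases then numbered 11 higher and 0 lower, with a median of 0.16, and the methyltransferases 9 higher and 3 lower, with a median of 0.039. With mitochondrially encoded genes left out and the rest rescaled, 6 demethylases were higher and 0 lower, and 7 methyltransferases were higher and 6 lower, when 18.3% of all genes tested were higher and 35.1% lower. The changes were small: among called members the largest rise was 1.44-fold and the largest fall was to 83.6% of the WT level. In bulk RNA, fewer cells of a type and less RNA per cell cannot be told apart.

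To show the promoters of the 4 demethylases with the largest rises (KDM3A, KDM5B, KDM4B and KDM3B) and of the 2 methyltransferases lower in all 15 alternative settings (EZH1 and SMYD5), the 250 bases before the gene start are printed from RefSeq (GRCh38.p14), 5′ to 3′ on the gene's strand. Capitals mark GCGTG on either strand, the core of the element bound by the aryl hydrocarbon receptor, a sensor of aromatic compounds such as those in smoke.
KDM3A, chr2:86441121-86441370, plus strand: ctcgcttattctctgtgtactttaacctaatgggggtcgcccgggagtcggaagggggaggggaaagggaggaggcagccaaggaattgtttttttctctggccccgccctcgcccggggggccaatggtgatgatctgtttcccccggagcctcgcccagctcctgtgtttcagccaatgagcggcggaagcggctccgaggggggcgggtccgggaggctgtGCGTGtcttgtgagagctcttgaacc
KDM5B, chr1:202808422-202808671, minus strand: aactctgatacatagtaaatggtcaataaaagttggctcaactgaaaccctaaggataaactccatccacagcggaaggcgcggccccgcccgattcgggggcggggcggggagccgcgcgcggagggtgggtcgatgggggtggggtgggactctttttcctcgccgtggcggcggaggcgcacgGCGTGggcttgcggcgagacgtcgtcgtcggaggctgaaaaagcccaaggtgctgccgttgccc
KDM4B, chr19:4968863-4969112, plus strand: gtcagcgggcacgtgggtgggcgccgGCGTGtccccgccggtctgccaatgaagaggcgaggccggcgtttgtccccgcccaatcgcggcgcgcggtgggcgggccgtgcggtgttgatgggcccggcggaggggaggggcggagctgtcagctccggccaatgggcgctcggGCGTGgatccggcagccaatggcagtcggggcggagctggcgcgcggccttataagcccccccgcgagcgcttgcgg
KDM3B, chr5:138352435-138352684, plus strand: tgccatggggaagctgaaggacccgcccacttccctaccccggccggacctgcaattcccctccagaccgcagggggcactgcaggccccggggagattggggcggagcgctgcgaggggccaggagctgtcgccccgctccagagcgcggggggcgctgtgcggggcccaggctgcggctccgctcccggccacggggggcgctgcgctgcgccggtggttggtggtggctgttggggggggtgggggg
EZH1, chr17:42745041-42745290, minus strand: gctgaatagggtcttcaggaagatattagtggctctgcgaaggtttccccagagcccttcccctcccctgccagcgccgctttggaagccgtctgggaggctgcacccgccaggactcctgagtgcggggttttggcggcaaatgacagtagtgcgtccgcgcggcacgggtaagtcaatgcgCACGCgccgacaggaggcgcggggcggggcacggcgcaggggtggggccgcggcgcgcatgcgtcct
SMYD5, chr2:73213995-73214244, plus strand: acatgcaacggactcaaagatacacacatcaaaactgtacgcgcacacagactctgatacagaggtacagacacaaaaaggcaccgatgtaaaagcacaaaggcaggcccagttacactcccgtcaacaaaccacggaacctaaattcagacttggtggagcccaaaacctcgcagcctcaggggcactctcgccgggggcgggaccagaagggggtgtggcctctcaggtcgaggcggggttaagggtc
A window was found for 45 of the 48 members. GCGTG occurred in 31 of them (68.9%), against 45.7% of 10303 windows of genes tested and 32.2% of all 35116 windows. It was in 11 of the 15 members with a window that were higher in CSE (73.3%) and in 20 of the 30 others (66.7%). The median GC content was 65.6% in the members' windows and 65.2% in those of the genes tested. ACGTG, a core form of the hypoxia response element, occurred in 10 of the 45 (22.2%), against 23.3% of the windows of genes tested. GCGTG is also a form of that core, so a GCGTG match does not tell the elements apart. In all, 5 motifs were searched on both strands. CCAAT occurred in 28.9% of the members' windows and 35.3% of those of genes tested, TTTGAA in 6.67% and 8%, and any of the E2F forms TTTCCCGC, TTTCGCGC, TTTGCCGC and TTTGGCGC in 8.89% and 4.52%. In the 15 higher members and the 30 others, CCAAT occurred in 7 (46.7%) and 6 (20%), and ACGTG in 3 (20%) and 7 (23.3%). TTTGAA occurred in 0 and 3 of them, and the E2F forms in 0 and 4. These splits were not tested. Only 12 of the 45 windows met no exon of the GENCODE annotation, so most hold some annotated exon. Of the printed windows only that of KDM4B lies wholly before the span that GENCODE gives the gene. Those of KDM3A and KDM5B lie wholly inside it, and those of KDM3B, EZH1 and SMYD5 in part. KDM3B and SMYD5 show no capitals, which says no more than that these letters are not in this window, and a match is not a bound site.

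Of the 4 H3K4 demethylases in the group 3 were called higher, when 24.5% of all genes tested were. The call of KDM5A was less stable than those of KDM5B and KDM1A. KDM5B, a JmjC eraser of trimethylated H3K4 (ENSG00000117139, chr1:202724495-202809470 on GRCh38), was at 31.5, 31.2 and 27.2 TPM in CSE and at 22.4, 21.8 and 21.3 TPM in WT. The lowest CSE sample lay above the highest WT sample, and the mean was 1.38-fold higher (30.0 ± 2.38 against 21.8 ± 0.555 TPM, SD, n = 3 each, log2 fold change 0.44 ± 0.0563 SE, adjusted p by limma = 1.38e-06). KDM1A, or LSD1, the FAD-dependent eraser of the CoREST complex and the most abundant member of all, had 167, 171 and 172 TPM in CSE and 145, 146 and 143 TPM in WT. Its samples were close to each other within each group, and the rise was 1.17-fold (log2 fold change 0.23 ± 0.0374 SE, adjusted p by limma = 2.77e-05). KDM5A, the paralog of KDM5B, had 15.3, 15.3 and 13.0 TPM in CSE and 12.8, 12.8 and 12.4 TPM in WT. CSE replicate 3 was next to the WT values, yet the groups did not overlap, and KDM5A was called (log2 fold change 0.18 ± 0.0642 SE, adjusted p by limma = 0.0232). That call ended in 6 of the 15 alternative settings, among them the removal of CSE replicate 1, CSE replicate 2, WT replicate 1 or WT replicate 3 (adjusted p up to 0.109). KDM1B, the other LSD-type enzyme, had 43.2, 46.1 and 39.4 TPM in CSE and 42.7, 41.4 and 40.6 TPM in WT, with overlapping groups (log2 fold change 0.04, adjusted p = 0.515).

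Among erasers of H3K9, 3 of 3 members of the KDM3 family were higher, when 24.5% of all genes tested were. KDM3A, which removes methyl groups from mono- and dimethylated H3K9 and is a known target of hypoxia-inducible factor (ENSG00000115548, chr2:86440647-86492716), showed the largest rise of the 48. It was at 42.9, 44.5 and 40.6 TPM in CSE and at 29.7, 29.7 and 29.2 TPM in WT. The 2 ranges were far apart compared with the spread inside either, and the mean was 1.44-fold higher (42.6 ± 1.97 against 29.5 ± 0.282 TPM, SD, n = 3 each, log2 fold change 0.51 ± 0.0479 SE, adjusted p by limma = 1.46e-08). KDM3B, its paralog, had 54.6, 54.3 and 47.7 TPM in CSE and 42.0, 43.2 and 41.5 TPM in WT. Again CSE replicate 3 was the lowest CSE sample and still above WT, and the rise was 1.23-fold (log2 fold change 0.30 ± 0.0510 SE, adjusted p by limma = 5.79e-05). JMJD1C, the family member whose demethylase activity is debated, had 32.4, 32.5 and 27.4 TPM in CSE and 26.0, 26.6 and 26.3 TPM in WT (log2 fold change 0.21 ± 0.0581 SE, adjusted p by limma = 0.00401).

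In the KDM4 family, which acts on H3K9 and for KDM4A to KDM4C also on H3K36, 1 of 4 genes rose. That is 25%, near the 24.5% of all genes tested that were higher. KDM4B had 29.4, 29.2 and 25.7 TPM in CSE and 23.2, 21.0 and 21.1 TPM in WT, groups that did not overlap (a ratio of 1.29, log2 fold change 0.35 ± 0.0581 SE, limma adjusted p = 3.32e-05). KDM4A, the most abundant of the family, had 63.9, 64.2 and 61.8 TPM in CSE and 61.8, 57.6 and 58.6 TPM in WT, a difference of 0.093 that did not pass (adjusted p = 0.0818). Its lowest CSE value lay just above its highest WT value, and without CSE replicate 3 it passed (0.11, adjusted p = 0.0357). KDM4A also passed with median-of-ratios scaling (adjusted p by limma = 0.0198) and without WT replicate 1 (0.0330). KDM4C was at 10.7 ± 0.601 TPM in CSE and 9.98 ± 0.286 TPM in WT (adjusted p by limma = 0.228). That value was 0.0446 without CSE replicate 3 and 0.0344 with quantile normalization. KDM4D, at 3.34 ± 0.364 TPM in CSE and 3.19 ± 0.591 TPM in WT, is the second least abundant member and its groups overlapped.

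The PHF2, PHF8 and KDM7A group of JmjC proteins moved little. PHF2, which acts on H3K9, was called higher (21.8 ± 1.08 TPM in CSE, 19.7 ± 1.03 TPM in WT, log2 fold change 0.14, limma adjusted p = 0.0378) although its groups overlapped, and 7 of the 15 alternative settings lost the call, among them those without CSE replicate 1, CSE replicate 2, WT replicate 2 or WT replicate 3 (adjusted p up to 0.160). PHF8, an eraser of H3K9 and H4K20, was at 18.01 ± 1.45 TPM in CSE and 17.9 ± 0.185 TPM in WT. KDM7A, an eraser of H3K9 and H3K27, had 15.4, 15.5 and 13.4 TPM in CSE and 14.4, 16.1 and 14.5 TPM in WT. Neither PHF8 nor KDM7A passed. KDM6B, or JMJD3, which removes H3K27 methylation, was at 38.2 ± 2.44 TPM in CSE and 37.9 ± 1.65 TPM in WT, with a log2 fold change of 0.0098 (SE 0.0521).

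Of the erasers counted here at H3K36 alone, KDM2A was higher and KDM2B and KDM8 did not pass. KDM2A, which binds unmethylated CpG islands, had 41.0, 41.5 and 37.4 TPM in CSE and 36.3, 36.1 and 36.3 TPM in WT (log2 fold change 0.14 ± 0.0486 SE, adjusted p by limma = 0.0234). CSE replicate 3 was the closest to WT, and the call was lost in 7 of the 15 alternative settings, which include leaving out any sample other than CSE replicate 3 (adjusted p up to 0.158). KDM2B, its paralog and a recruiter of Polycomb repressive complex 1, was at 15.4 ± 1.06 TPM in CSE and 16.0 ± 0.382 TPM in WT. KDM8, the least abundant member, had 2.25, 2.08 and 2.32 TPM in CSE and 2.22, 2.90 and 2.84 TPM in WT, where WT replicate 1 lay inside the CSE range (log2 fold change -0.18, adjusted p = 0.118). It was called lower without that sample (-0.27, limma adjusted p = 0.0324).

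The H3K4 methyltransferases split: of 9, 2 were higher and 2 lower, or 44.4% called, when 50.1% of all genes tested were called. SETD1B, a trimethylase of the COMPASS complex, had 9.53, 9.96 and 8.49 TPM in CSE and 7.03, 6.62 and 6.77 TPM in WT, a 1.37-fold rise (log2 fold change 0.40 ± 0.0693 SE, adjusted p by limma = 5.88e-05). SETD1A, its paralog, went the other way, with 20.4, 21.8 and 19.1 TPM in CSE and 23.4, 22.3 and 23.6 TPM in WT. Neither pair of ranges overlapped, and SETD1A was at 88.6% of its WT mean (log2 fold change -0.17 ± 0.0557 SE, adjusted p by limma = 0.0151). The SETD1A call was lost without WT replicate 1 or WT replicate 3 (adjusted p up to 0.0592). KMT2E, or MLL5, a SET protein without clear catalytic activity, had 20.7, 20.5 and 15.9 TPM in CSE and 14.6, 15.6 and 14.7 TPM in WT. CSE replicate 3 was just above the highest WT sample, and KMT2E was called higher (log2 fold change 0.32 ± 0.0744 SE, adjusted p by limma = 0.00113), with 0.44 when that sample was left out.

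Of the 4 MLL enzymes, KMT2A, KMT2C and KMT2D have the longest transcripts of the 48 members. KMT2A had 28.1, 28.5 and 20.6 TPM in CSE and 27.9, 28.2 and 27.6 TPM in WT. KMT2D, which with KMT2C places monomethyl H3K4 at enhancers, had 25.6, 26.0 and 20.4 TPM in CSE and 26.9, 25.8 and 26.4 TPM in WT. For KMT2A and KMT2D, CSE replicates 1 and 2 were close to the WT samples and replicate 3 alone was far below. KMT2C had 11.3, 11.9 and 8.99 TPM in CSE and 12.7, 12.4 and 12.7 TPM in WT and was called lower (log2 fold change -0.22 ± 0.0756 SE, adjusted p by limma = 0.0182). The KMT2C call also ended without WT replicate 1 (adjusted p = 0.0770) or WT replicate 3 (0.0607). Without CSE replicate 3 its difference was -0.11 (adjusted p = 0.0807), and those of KMT2A and KMT2D were 0.018 and -0.028. Without CSE replicate 1, and without CSE replicate 2, KMT2A and KMT2D were called lower. KMT2D was also called lower without mitochondrially encoded genes (adjusted p by limma = 0.0385). KMT2B was at 19.0 ± 1.63 TPM in CSE and 19.0 ± 0.817 TPM in WT. SETD7, a monomethylase with many non-histone substrates, was at 20.7 ± 2.32 TPM in CSE and 22.3 ± 0.440 TPM in WT, and SMYD3, which also methylates MAP3K2, at 24.6 ± 1.52 TPM in CSE and 24.5 ± 0.365 TPM in WT. KMT2B, SETD7 and SMYD3 did not pass, though SETD7 was called lower without CSE replicate 2.

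**Figure D2:**
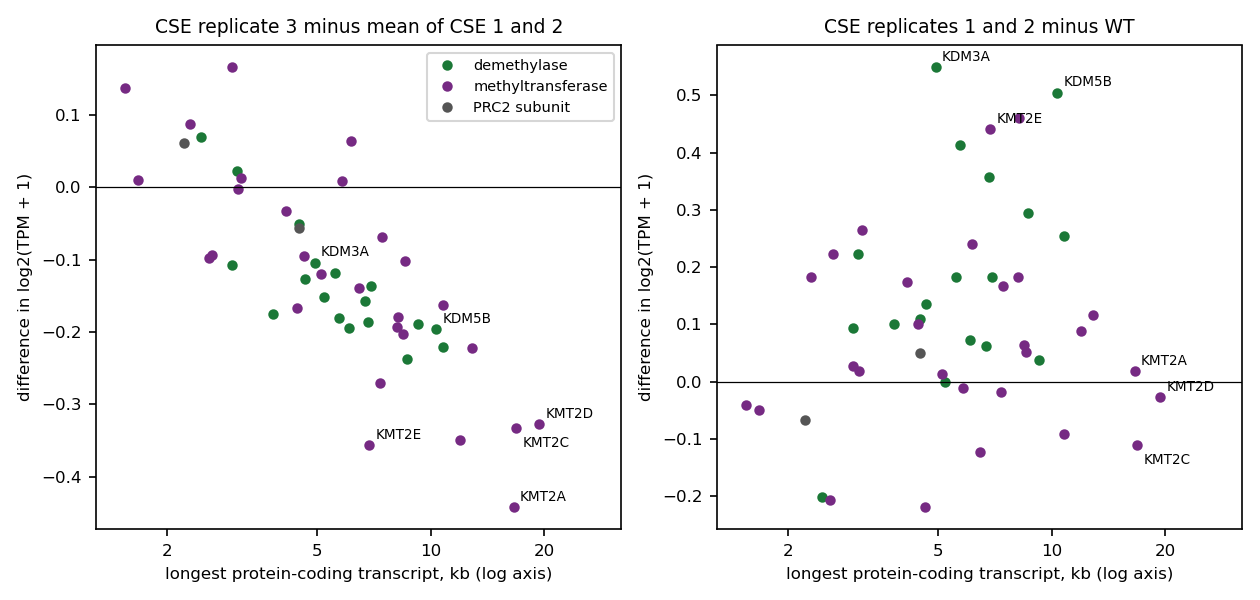
Each point is 1 of the 48 members, placed by the length of its longest protein-coding transcript in kilobases (log axis). The left panel gives the difference of CSE replicate 3 from the mean of CSE replicates 1 and 2, and the right panel the difference of CSE replicates 1 and 2 from WT, both in log2(TPM + 1), and the left panel falls with length (KMT2A at -0.44) while the right one does not.

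Across the 48 members, Pearson's r between log2 transcript length and the deviation of CSE replicate 3 was -0.81. Between length and the log2 fold change it was -0.038 with all samples and 0.16 without CSE replicate 3. These are descriptions over genes that share the same 6 libraries. In the longest bin the 28 members had a median log2 fold change of 0.014, against -0.045 for all genes of that bin, and without CSE replicate 3 of 0.080 against -0.0021.

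Of the 6 H3K9 methyltransferases 2 rose (33.3%, when 24.5% of all genes tested were higher) and 0 fell. EHMT2, or G9a, the main dimethylase of euchromatin, had 61.9, 60.9 and 60.0 TPM in CSE and 54.6, 54.0 and 54.3 TPM in WT (a ratio of 1.12, log2 fold change 0.16 ± 0.0418 SE, limma adjusted p = 0.00270). EHMT1, its partner GLP, was at 11.5, 11.9 and 10.7 TPM in CSE and 11.8, 11.5 and 11.5 TPM in WT and did not pass. SETDB2 had 6.22, 6.44 and 6.66 TPM in CSE and 5.08, 5.36 and 5.17 TPM in WT (a ratio of 1.24, log2 fold change 0.26 ± 0.0700 SE, limma adjusted p = 0.00365). SETDB1, the enzyme recruited by TRIM28, was at 28.9 ± 2.02 TPM in CSE and 27.95 ± 0.347 TPM in WT and did not pass. In the annotation 13.4% of its exonic bases overlap exons of CERS2 on the other strand. SUV39H1, which trimethylates pericentric heterochromatin, had 8.87, 9.34 and 10.3 TPM in CSE and 8.91, 9.34 and 8.52 TPM in WT. SUV39H2 had 12.1, 14.2 and 13.1 TPM in CSE and 13.5, 12.8 and 12.6 TPM in WT, so the groups of both SUV39 genes overlapped.

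At H3K27 the alternative catalytic subunits of PRC2 moved in opposite directions. EZH2 (ENSG00000106462, chr7:148807383-148884321), the form of dividing cells, had 68.4, 65.2 and 62.5 TPM in CSE and 58.3, 57.2 and 55.8 TPM in WT (a ratio of 1.15, log2 fold change 0.19 ± 0.0447 SE, limma adjusted p = 0.00120). EZH1 (ENSG00000108799, chr17:42700275-42745049), the form that prevails in resting cells, had 33.1, 31.3 and 30.0 TPM in CSE and 39.2, 36.3 and 37.3 TPM in WT. It showed the largest fall among called members, to 83.6% of the WT mean (log2 fold change -0.25 ± 0.0502 SE, adjusted p by limma = 0.000282). The ratio of EZH2 to EZH1 within a sample was 2.07, 2.09 and 2.08 in CSE and 1.485, 1.58 and 1.495 in WT. The shared core subunits did not pass, with EED at 15.7, 15.7 and 16.4 TPM in CSE and 17.7, 15.7 and 16.1 TPM in WT. SUZ12, the scaffold, had 43.7, 44.5 and 42.4 TPM in CSE and 43.1, 43.5 and 41.1 TPM in WT.

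Of the 6 H3K36 methyltransferases 1 was called (16.7%, when 50.1% of all genes tested were called), and it was lower. NSD3 had 24.5, 25.3 and 22.2 TPM in CSE and 26.8, 26.8 and 26.2 TPM in WT (log2 fold change -0.15 ± 0.0539 SE, adjusted p by limma = 0.0284), and the call ended without CSE replicate 3 (-0.092, adjusted p = 0.0787), WT replicate 1 (0.0762) or WT replicate 2 (0.0847). The NSD3 call was lost in 5 of the 15 alternative settings, also with low-TPM genes kept and with a constant variance prior. Its dimethylase paralogs did not pass: NSD1 had 18.3, 18.8 and 15.8 TPM in CSE and 17.3, 17.4 and 16.4 TPM in WT. NSD2 had 31.4, 31.8 and 29.4 TPM in CSE and 31.0, 30.8 and 29.6 TPM in WT. SETD2, the trimethylase that travels with RNA polymerase II, was at 23.6 ± 2.04 TPM in CSE and 21.6 ± 0.713 TPM in WT (log2 fold change 0.12, adjusted p = 0.0994, or 0.18 and 0.00635 without CSE replicate 3). SETD2 was also called higher with median-of-ratios scaling and with quantile normalization. ASH1L (22.6 ± 3.26 TPM in CSE, 22.9 ± 0.157 TPM in WT) and SMYD2, which also methylates p53 (34.4 ± 0.701 TPM in CSE, 35.5 ± 1.17 TPM in WT), did not pass.

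DOT1L, the H3K79 methyltransferase, had 35.7, 37.2 and 34.7 TPM in CSE and 34.1, 32.3 and 30.8 TPM in WT (log2 fold change 0.14 ± 0.0501 SE, adjusted p by limma = 0.0209). Its call was lost in 4 of the 15 alternative settings, among them those without CSE replicate 2, WT replicate 2 or WT replicate 3 (adjusted p up to 0.1095). At H4K20, KMT5A, or SET8, the monomethylase whose level rises toward mitosis, had 66.8, 68.4 and 68.2 TPM in CSE and 54.9, 56.5 and 57.0 TPM in WT. Its mean over all 6 samples was the highest of the methyltransferases, though EZH2 was above it in WT (57.1 TPM against 56.1 TPM for KMT5A), and its rise was 1.21-fold with little spread (log2 fold change 0.27 ± 0.0418 SE, adjusted p by limma = 1.65e-05). KMT5C, which adds the further methyl groups, had 28.99, 30.98 and 31.9 TPM in CSE and 25.7, 28.2 and 25.1 TPM in WT (log2 fold change 0.21 ± 0.0543 SE, adjusted p by limma = 0.00266). KMT5B, its paralog, had 14.1, 14.3 and 14.3 TPM in CSE and 14.2, 14.9 and 13.7 TPM in WT and did not pass. SMYD5, reported to act on H4K20, fell to 34.5, 33.9 and 31.9 TPM in CSE, against 40.5, 39.6 and 38.8 TPM in WT (log2 fold change -0.24 ± 0.0476 SE, adjusted p by limma = 0.000270).

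**Figure D3:**
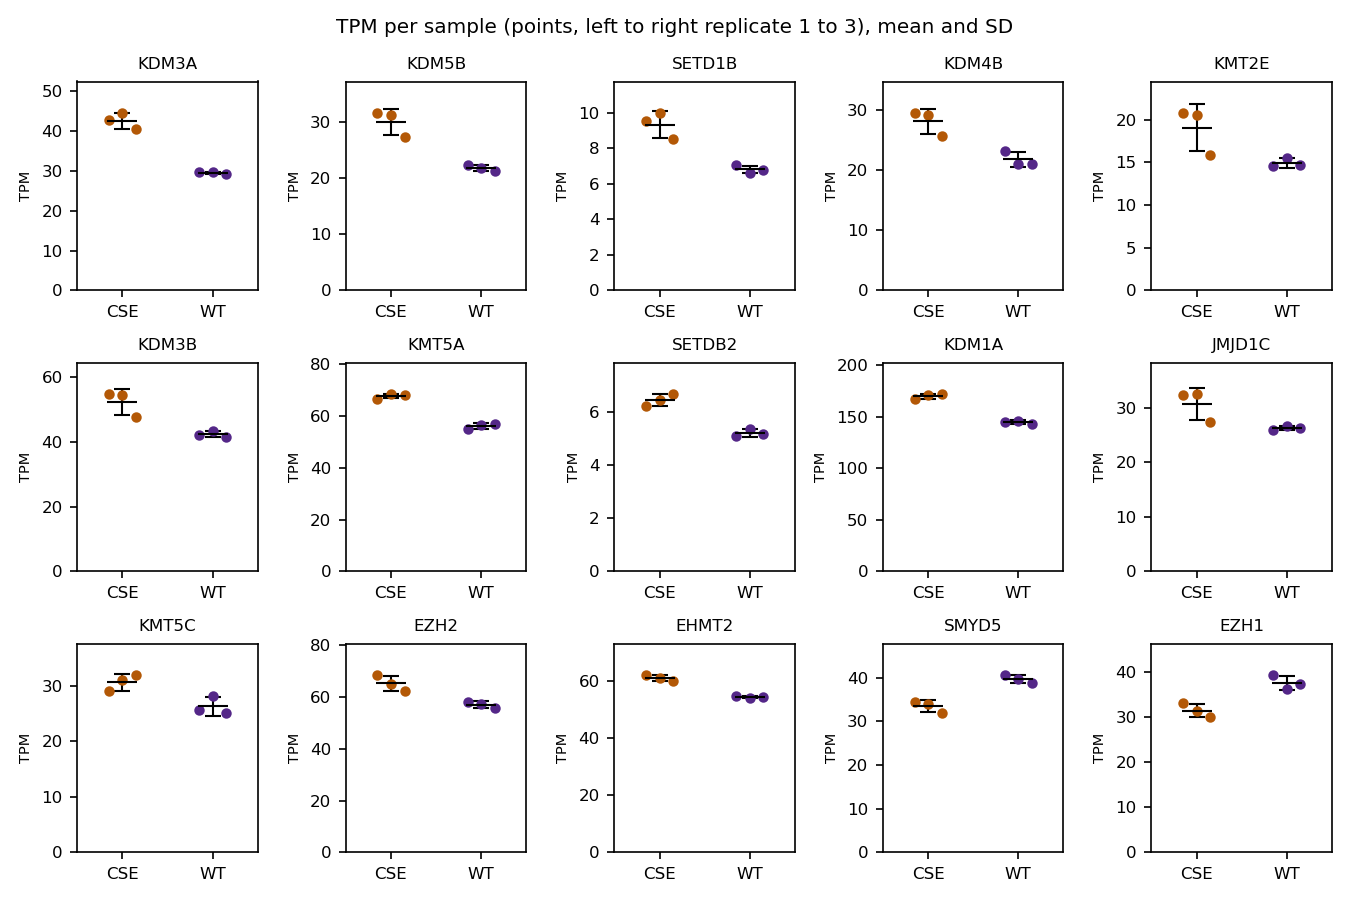
TPM in each sample (points, CSE left and WT right) with the group mean and SD (bars) for the 15 members called in the same direction under all 15 alternative settings. The CSE points lie above the WT points in 13 panels and below them for SMYD5 and EZH1.

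A total of 15 members kept their call and direction under all 15 alternative settings, 13 of them higher and 2 lower. No such count over all genes tested is at hand, so whether these numbers are unusual cannot be said. They are the demethylases KDM1A, KDM5B, KDM3A, KDM3B, JMJD1C and KDM4B and the methyltransferases KMT2E, SETD1B, SETDB2, EHMT2, EZH2, KMT5A and KMT5C on the higher side, and EZH1 and SMYD5 on the lower. In 22 of the 48 members the groups did not overlap, 17 higher and 5 lower, or 45.8%, when 57.4% of all genes tested had groups that did not overlap, 27.5% higher and 29.9% lower.

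Several paralogs changed unequally, so that the make-up within families differed between the groups. SETD1B over SETD1A was 0.467, 0.456 and 0.445 in CSE and 0.301, 0.297 and 0.287 in WT. KDM5B over KDM5A was 2.07, 2.04 and 2.10 in CSE and 1.75, 1.71 and 1.72 in WT. KDM3B over KDM3A was lower, at 1.27, 1.22 and 1.176 in CSE and 1.42, 1.45 and 1.42 in WT. The ratios of KDM1A to KDM1B (3.98 ± 0.338 in CSE, 3.48 ± 0.0725 in WT), EHMT2 to EHMT1 (5.35 ± 0.245 in CSE, 4.68 ± 0.0637 in WT) and KMT5C to KMT5B (2.16 ± 0.0889 in CSE, 1.84 ± 0.0421 in WT) were higher in every CSE sample than in any WT sample. That of SUV39H2 to SUV39H1 overlapped. These are SD over 3 samples a group, and the ratios were not tested.

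Summed over the class, the 18 demethylases held 650, 659 and 608 TPM in CSE and 566, 558 and 551 TPM in WT. The 28 methyltransferases held 749, 760.1 and 698 TPM in CSE and 721, 719 and 708 TPM in WT. The groups overlapped through CSE replicate 3 alone, since CSE replicates 1 and 2 lay above every WT sample. The ratio of demethylase to methyltransferase TPM was 0.868, 0.867 and 0.871 in CSE and 0.785, 0.776 and 0.779 in WT. In the ratio CSE replicate 3 lay with the other CSE samples (SD 0.0017 over the 3), while each sum was lowest in it within its group. By residue, each enzyme was counted at the residues named for it above. KMT2E, without clear catalytic activity, is in the H3K4 writer sum, and JMJD1C, whose activity is debated, in the H3K9 eraser sum. Enzymes outside the 48, such as KDM5C at H3K4 and KDM6A at H3K27, are not in these sums. The eraser to writer ratio was higher in CSE at H3K4 (1.49 ± 0.115 in CSE, 1.24 ± 0.0207 in WT), H3K9 (2.19 ± 0.0850 in CSE, 2.03 ± 0.0202 in WT) and H3K36 (1.05 ± 0.0244 in CSE, 0.947 ± 0.0274 in WT). CSE replicate 3 set the spread at H3K4, where the mean of CSE replicates 1 and 2 was 1.42, and that mean was 2.24 at H3K9 and 1.035 at H3K36. The groups overlapped at H3K27 (0.547 ± 0.0242 in CSE, 0.559 ± 0.0104 in WT) and at H4K20, where PHF8 is the only eraser counted (0.123 ± 0.0101 in CSE, 0.131 ± 0.00104 in WT), with and without CSE replicate 3. In these sums an abundant gene counts for more: KDM1A alone gives most of the H3K4 eraser TPM. The ratios are descriptions of mRNA without a test.

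**Figure D4:**
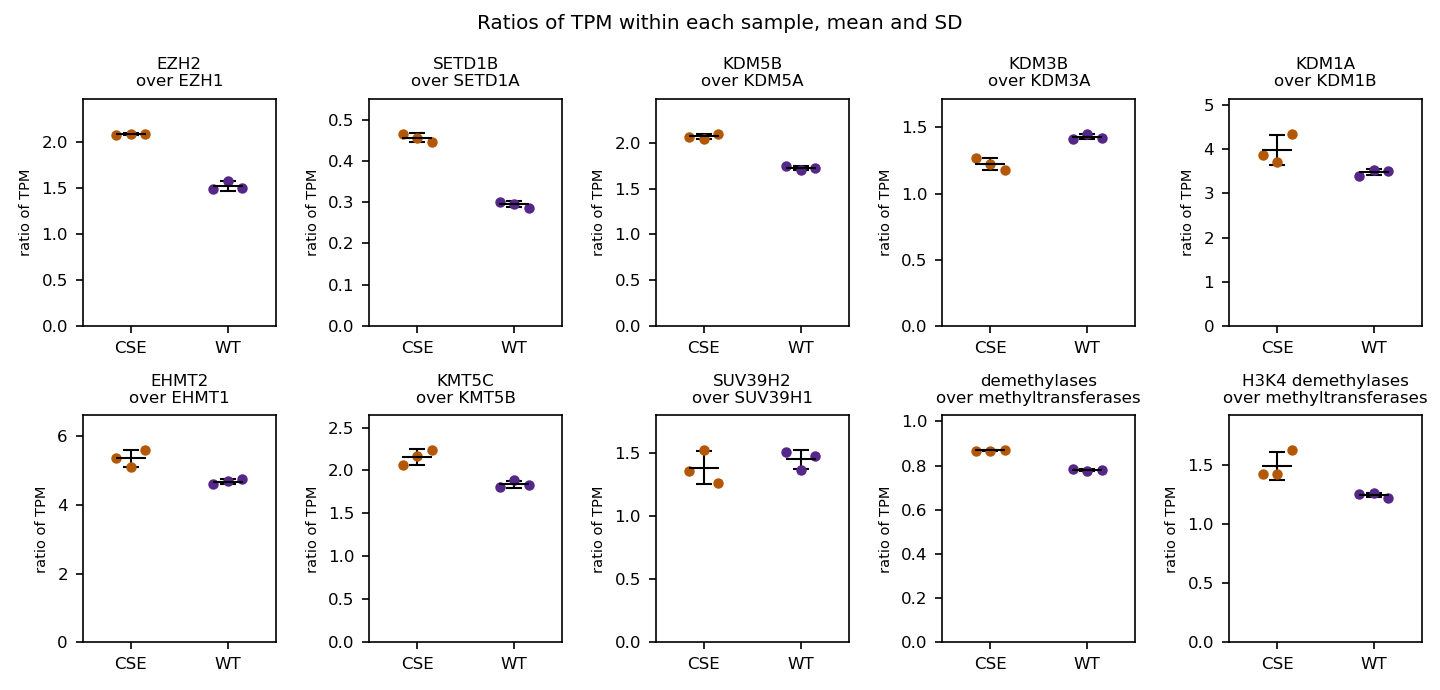
Ratios of TPM within each sample (points, CSE left and WT right) with the mean and SD for 8 paralog pairs, for all demethylases over all methyltransferases, and for the H3K4 enzymes. The groups are separate in 9 of the 10 panels, with KDM3B over KDM3A lower in CSE and SUV39H2 over SUV39H1 overlapping.

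Most partners of KDM1A were higher too. Of 11 LSD1 complex partners 8 were higher, 0 lower and 3 did not pass (median log2 fold change 0.22, against -0.0039 for all genes tested, 24.5% of which were higher). PHF21A, the subunit that reads unmethylated H3K4, was at 32.2 ± 2.71 TPM in CSE and 22.7 ± 0.605 TPM in WT (log2 fold change 0.48, limma adjusted p = 4.17e-07). RCOR2, a CoREST scaffold, was at 16.4 ± 0.610 TPM in CSE and 11.5 ± 0.331 TPM in WT (0.47, adjusted p = 6.41e-07). The other scaffold genes RCOR1 (0.23) and RCOR3 (0.22) and the deacetylase gene HDAC1 (0.37) were also called higher, as were HMG20B (0.39), MTA1 (0.17) and MTA2 (0.12). The MTA2 call was lost in 8 of the 15 alternative settings.

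Partners of the other enzymes were mixed, and their counts are set against 24.5% higher, 25.6% lower and 50.1% called among all genes tested. Among 11 partners and readers of H3K9 methylation 4 rose (36.4%) and 0 fell, with the largest rise in MORC2, an ATPase of HUSH-dependent silencing (log2 fold change 0.50, limma adjusted p = 3.78e-08), and CBX3, the HP1 gamma reader (0.31, adjusted p = 7.01e-07). Of 12 COMPASS core subunits and partners 2 rose and 3 fell (41.7% called). WDR5 and RBBP5, subunits shared by the MLL and SETD1 complexes, were lower (-0.26 and -0.31), as was HCFC1 (-0.42, limma adjusted p = 1.12e-06), whereas DPY30 (0.21) and the chromatin tether PSIP1 (0.29) were higher. Of 9 accessory subunits of PRC2, 2 were higher (PHF19 at 0.18 and RBBP7 at 0.10) and 2 lower (EPOP at -0.24 and RBBP4 at -0.18), or 44.4% called. The PHF19 call was lost in 5 of the 15 settings and that of RBBP7 in 6. Of 5 elongation factors that work with DOT1L (60% called), MLLT3 (0.20) and MLLT10 (0.13) were higher and MLLT1 (-0.18) lower, with the MLLT3 call lost in 3 settings and that of MLLT10 in 8.

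A list of 15 genes of cofactor metabolism, not all of which supply a cofactor, was read too. Of these 5 were higher (33.3%) and 4 lower (26.7%), near the 24.5% and 25.6% of all genes tested. MAT2A, the catalytic subunit of the enzyme that makes S-adenosylmethionine, was at 262 ± 11.2 TPM in CSE and 315 ± 8.56 TPM in WT (log2 fold change -0.27 ± 0.0398 SE, adjusted p by limma = 1.02e-05). Its regulatory subunit MAT2B was at 50.5 ± 0.829 TPM in CSE and 38.8 ± 0.269 TPM in WT (0.37, SE 0.0437, adjusted p = 4.58e-07). IDH2, the mitochondrial isocitrate dehydrogenase, a source of 2-oxoglutarate, was higher (0.36, adjusted p = 6.55e-07). D2HGDH and FH were also called higher and AHCY, IDH1 and IDH3A lower, with the AHCY call lost in 6 of the 15 settings and that of IDH1 in 7.

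**Figure D5:**
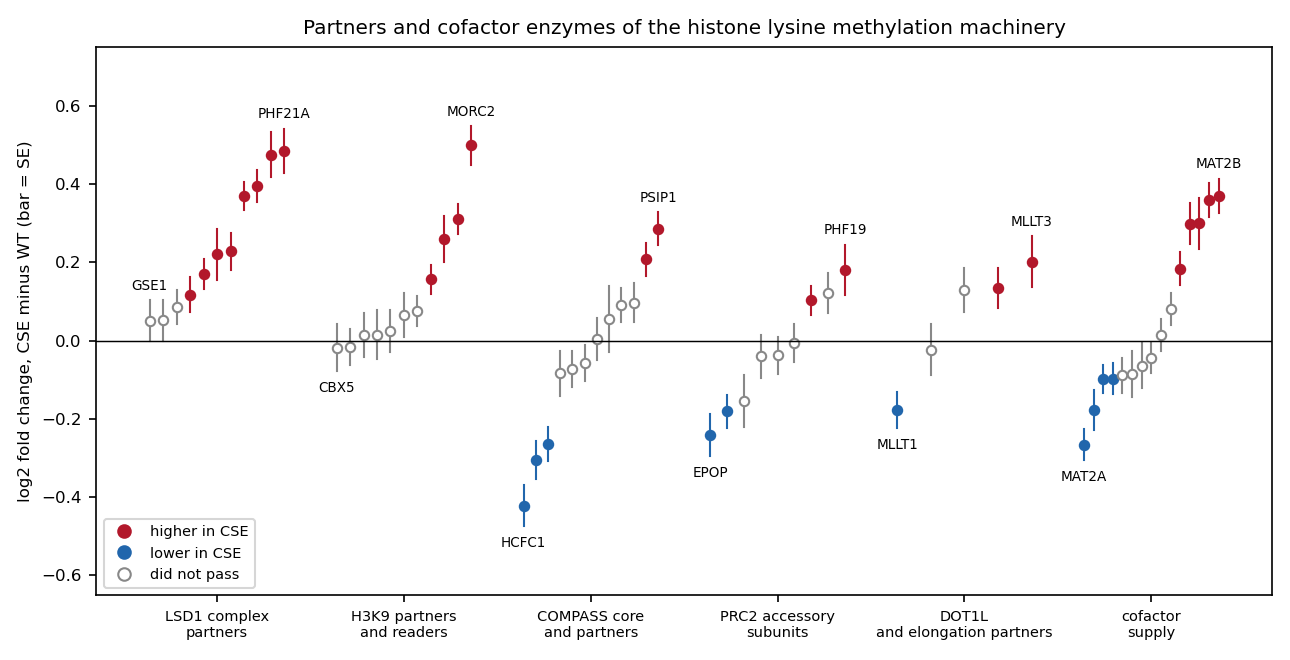
Log2 fold change (as CSE less WT in log2(TPM + 1), with its SE) of the partner and cofactor genes in 6 lists, ordered by value within a list, with the lowest and highest gene of each list named. Red points were higher in CSE, blue lower and open grey did not pass, and the list of LSD1 complex partners has 8 red and 0 blue points.

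Cell cycle markers differed between the groups as well. All 8 mitosis markers were higher in CSE and summed to 1254 to 1306 TPM in CSE and 788 to 810.1 TPM in WT. Of 8 G1/S markers 6 were lower and 0 higher (322 to 330.1 TPM in CSE, 396 to 413 TPM in WT). Of all genes tested 24.5% were higher and 25.6% lower. The call of MCM6 was lost without CSE replicate 1 or WT replicate 2. Among the markers CENPF rose by 1.04 and PLK1 by 0.83, and E2F1 fell by 0.59 and CCNE1 by 0.47 on the log2 scale. KMT5A and EZH2 are known to vary over the cell cycle. The part that the changed markers play in the members' values was not tested.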

How the data were processed

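The authors deposited 1 table of TPM for 20263 genes in 6 mRNA-seq libraries, and 0 sample columns were left unmapped. TPM is divided by transcript length and library total, so the depth of each sample is unknown and no count model, counting interval or floor was used. Per the submitters' processing notes, FastQC 0.11.2, Trimmomatic 0.36, HISAT2 2.0, bedtools 2.26.0 and GRCh38 were used. The sources used here do not name the counting program, annotation or strandedness, so reads from exons that overlap on opposite strands may not be separated (8 members, SETDB1 most).

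Symbols were matched for 20148 genes, and positions and lengths come from GENCODE 29 on GRCh38. The test covered the 12793 genes that reached 1 TPM in 3 or more libraries, on a log scale, log2(TPM + 1), with limma 3.58.1 in R 4.3.3 (empirical Bayes with trend, no covariate, Benjamini-Hochberg at 0.05 over all genes tested). On this scale the fold changes of weakly expressed genes are understated. The labels do not say whether replicates are separate cultures. The p-values therefore reflect sample-to-sample spread that could be technical only. The fit was also run on simulated data, with genes drawn independently and few of them changed. That setting is unlike these data, so the run does not vouch for the calls. Values per sample are given for the 10 largest called rises and falls, the most abundant member of each class and paralog pairs, and also for some members outside this rule, chosen after their values were seen. The members and gene lists were chosen with earlier results of these data known. The alternatives (pseudocount, filters, scalings, variance priors, replicate block, each sample left out) were applied to the partner lists as an addition made after seeing the data. The values of 1 gene of the cofactor list are not reported here.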

Additional observations from a re-analysis of the deposited data

How the results depend on the processing

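The calls of 15 members held under all 15 alternatives. The count of members called lower (5) was 3 with low-TPM genes kept, 3 with a constant variance prior, and 3 to 8 when 1 sample was left out. Over all genes the count called lower (3277 of 12793) was 3122 of 17857 with low-TPM genes kept. It was 3112 with the constant prior and 2601 to 3207 with 1 sample left out. The methyltransferases called lower (5) numbered 3 with low-TPM genes kept, 3 with the constant prior and 2 to 8 with 1 sample left out, and the demethylases called lower (0) numbered 0 to 1. The PRC2 accessory list had 2 to 5 calls and the DOT1L list 1 to 4 with 1 sample left out, when 5463 to 6573 of all genes were called. The DOT1L list had 1 call without mitochondrially encoded genes. Leaving those genes out moved the median of all genes to -0.058 and the share of calls that were higher from 48.9% to 34.3% (2343 higher, 4489 lower), and the methyltransferase median to -0.045. The cause was not tested.

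Sign changes (39) occurred in 18 members, 0 of them called. Without mitochondrially encoded genes the log2 fold change was -0.014 for KDM1B, -0.049 for PHF8, -0.047 for KDM6B, -0.052 for SMYD3, -0.011 for SETDB1, -0.036 for SUV39H2, -0.026 for SUZ12, -0.014 for NSD1 and -0.039 for NSD2. With median-of-ratios scaling it was 0.0079 for KMT2B and 0.0032 for KMT5B, and with quantile normalization 0.017 for KMT2B, 0.0081 for EHMT1 and 0.017 for KMT5B. With 1 sample left out it ranged from -0.0093 to 0.10 for KDM1B, -0.044 to 0.16 for KDM4D, -0.059 to 0.038 for KDM7A, -0.026 to 0.072 for PHF8, -0.025 to 0.062 for KDM6B and -0.092 to 1.57e-05 for KDM2B. The ranges were -0.21 to 0.018 for KMT2A, -0.051 to 0.064 for KMT2B, -0.041 to 0.043 for SMYD3, -0.038 to 0.073 for SUV39H2, -0.057 to 0.014 for EHMT1 and -0.080 to 0.00027 for EED. They were -0.0046 to 0.12 for NSD1, -0.0040 to 0.052 for NSD2, -0.11 to 0.088 for ASH1L and -0.035 to 0.022 for KMT5B.

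The labels do not say whether the replicate numbers pair the samples. The deviations of same-numbered CSE and WT samples correlated at -0.071, 0.015 and -0.088, and those of CSE replicate 3 and WT replicate 1 at 0.12. With 3 samples a group such values cannot settle whether the samples are paired. With the replicate block 17 members were higher and 5 lower, and over all genes 3188 were higher and 3349 lower. Depth is unknown, so no limit of detection can be set for the least abundant members, KDM8 and KDM4D.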
